A study of Mus musculus with 12 samples.

Results

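Peaks of AGO2-bound RNA that lay on microRNA genes other than Mir486 were examined in tibialis anterior (TA) muscle. A peak was a member if it shared at least 1 nt, on the same strand, with a GENCODE gene of type miRNA. Mir486 and its antisense neighbor Mir3107 were left out. The 4 lists of AGO2 library over input held 1824 such peaks of 713343 listed peaks, with 410 in WT and 409 in mir-486 KO muscle of set 1 and with 505 in WT and 500 in mir-486 KO muscle of set 2. Of 2200 annotated microRNA genes, 404 had a peak in at least 1 library.

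AGO2 is the Argonaute protein that holds a mature microRNA and brings it to target transcripts. A microRNA gene is transcribed as a hairpin, which is cut so that one strand, from the 5′ arm (5p) or the 3′ arm (3p), is loaded into AGO2 and the other is mostly degraded. Bases 2 to 8 of the loaded strand, its seed, pair with targets, and microRNAs with the same seed can share targets. Reads on a microRNA gene in an AGO2 immunoprecipitate can come from the loaded microRNA, from its precursor or from a host transcript. Skeletal muscle is known for a group of microRNAs often called myomiRs, with miR-1, miR-133, miR-206, miR-208b and miR-499 among them.

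The muscles came from male mice 6 months old, either WT or mir-486 KO, a line in which CRISPR removed the miR-486 hairpin within the Ank1 gene. By the labels the strain was C57BL/6 in WT mice and FVB N/J in KO mice, whereas the methods describe a KO line backcrossed to C57BL/6J, so genotype and strain cannot be told apart from the labels. Chimeric eCLIP, in which RNA is cross-linked to AGO2 with ultraviolet light, immunoprecipitated and partly ligated to the bound microRNA, was run in 2 library sets. Each set held 1 WT and 1 KO library with a paired input. The methods describe several muscles per genotype run in duplicate, and whether the sets are these duplicates, came from different mice or from pooled muscle is not given in the sources used here. Peaks at Mir486 or Mir3107 numbered 3 and 6 in the WT libraries and 0 in both KO libraries. All 5 muscle genes used to check the tissue, Acta1, Ckm, Myh4, Neb and Ttn, had listed peaks in every library, from 29 at Ckm in WT of set 1 to 1464 at Ttn in KO of set 2.

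The mature microRNAs that the results turn on are printed first, from RefSeq (GRCm38.p6), with the seed in capitals. The opening group is of muscle microRNAs: miR-206 and miR-133b lie close together on chromosome 1, miR-499 lies in an intron of the myosin gene Myh7b, and the printed strand of Mir1a-1 is the one that its peaks covered.
miR-206-3p: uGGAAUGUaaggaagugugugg
miR-133b-3p: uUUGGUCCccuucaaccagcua
miR-499-5p: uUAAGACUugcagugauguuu
miR-1a-1-5p: aCAUACUUcuuuauaugcccaua
These are at chr1:20679055-20679076, chr1:20682834-20682855, chr2:155622893-155622913 and chr2:180389057-180389079, all on the plus strand.

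The second group holds microRNAs and families with high folds over input, and shows how members of a family keep the seed and differ outside it.
miR-29a-3p: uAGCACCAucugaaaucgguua
miR-29b-3p: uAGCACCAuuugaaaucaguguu
miR-29c-3p: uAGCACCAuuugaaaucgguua
miR-30a-5p: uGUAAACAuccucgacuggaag
miR-30c-5p: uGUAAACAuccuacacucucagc
miR-30e-5p: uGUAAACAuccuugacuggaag
miR-27a-3p: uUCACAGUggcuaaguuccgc
miR-27b-3p: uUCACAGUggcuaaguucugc
let-7d-5p: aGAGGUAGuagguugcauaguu
let-7g-5p: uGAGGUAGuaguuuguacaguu
miR-451a: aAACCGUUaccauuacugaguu
The mature miR-29b-3p and miR-30c-5p are each made by 2 genes with the same sequence, so a read of either cannot be assigned to 1 of its copies, and how the authors handled such reads is not given in the sources used here.

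The third group is of microRNAs whose direct folds between the genotypes are described below. It holds 4 from the Dlk1-Dio3 cluster on chromosome 12, the blood cell miR-223, and miR-1249. The direct fold at miR-1249 was on the KO side in both sets.
miR-127-3p: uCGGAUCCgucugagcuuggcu
miR-136-5p: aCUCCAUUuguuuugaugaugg
miR-434-3p: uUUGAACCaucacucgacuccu
miR-300-3p: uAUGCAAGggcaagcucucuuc
miR-223-3p: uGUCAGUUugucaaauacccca
miR-1249-3p: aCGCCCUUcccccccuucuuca
Their positions are chr12:109592888-109592909, chr12:109595331-109595352, chr12:109594565-109594586, chr12:109724363-109724384, chrX:96242884-96242905 and chr15:84951545-84951566, and only the last lies on the minus strand.

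Peaks at microRNA genes stood far above input. A peak was called enriched where the authors' deposited log2 fold over input was at least 3 and the deposited −log10 p at least 3. In set 1, 228 of 410 members were enriched in WT (55.6%, 95% Wilson interval 50.8 to 60.3%), against 3.57% of all listed peaks, and 224 of 409 in KO (54.8%), against 0.848%. In set 2, 277 of 505 members were enriched in WT (54.9%), against 1.42% of all peaks, and 256 of 500 in KO (51.2%), against 1.23%. Most members, counted as listed pieces, were thus enriched in every library, where few of all peaks were. With adjoining pieces joined, a choice made after seeing the data, 129 of 292, 123 of 283, 147 of 341 and 142 of 361 were enriched in the same order. The enriched ones were then no longer the majority in any library. All listed peaks were not joined in this way. The intervals cover counting error only, and neighboring pieces of a peak are not independent.

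The median log2 fold over input of the members was 3.93 in WT and 3.66 in KO of set 1, and 3.77 in WT and 3.54 in KO of set 2. Over all listed peaks the medians were 0.68, 0.38, 0.47 and 0.45 in the same order. Per genotype, the median was 3.85 ± 0.11 in WT and 3.60 ± 0.08 in KO (mean ± SD of the sets, n = 2), with WT the higher library within both sets. WT and KO were not compared by a test, because an exact two-sided permutation of 2 against 2 libraries cannot give a p under 0.333. Members made up 6.92% and 22.0% of all enriched peaks in WT and KO of set 1, and 7.96% and 8.13% in set 2, although they were at most 0.444% of listed peaks in any library.

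**Figure D1:**
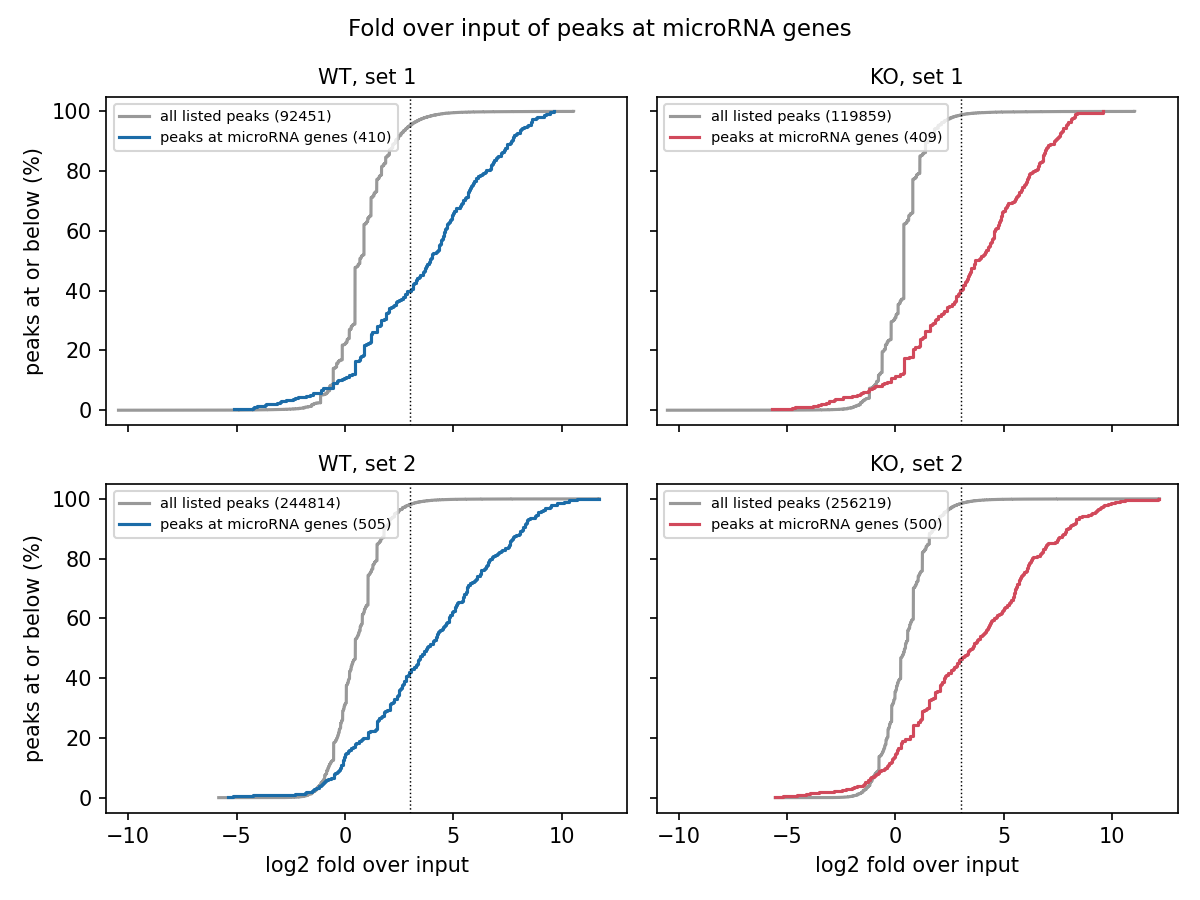
Share of peaks (y axis, %) at or below each log2 fold over input (x axis), for peaks at microRNA genes (colored) and all listed peaks (gray) in each of the 4 libraries, with the fold threshold of 3 dotted. The microRNA gene curves lie to the right of the gray curves above a log2 fold of about 0 in all 4 libraries.

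The same microRNA genes recurred. Genes with an enriched peak numbered 118 and 113 in WT and KO of set 1, and 133 and 130 in set 2. Between the WT libraries 111 were shared (94.1% of set 1, 83.5% of set 2), and between the KO libraries 107 were shared (94.7% and 82.3%). Within a set, WT and KO shared 108 genes in set 1 (91.5% of WT, 95.6% of KO) and 125 in set 2 (94.0% and 96.2%). In all, 103 genes were enriched in all 4 libraries and 145 in at least 1, and 259 of the 404 listed genes were enriched in none.

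The annotation divided the listed genes further. Of 1172 genes whose name starts with Mir, 343 were listed and 102 were enriched in all 4 libraries, whereas of 1028 genes with another name, such as the predicted Gm genes, 61 were listed and 1 was enriched in all 4. Genes within an exon of a protein-coding gene were often listed: 107 of 246 had a peak, against 404 of all 2200 genes. Of those 107, 14 were enriched in all 4 libraries, against 103 of the 404. Genes in exons of long noncoding genes gave 52 listed and 24 enriched in all 4 of 98, those in introns of protein-coding genes 136 and 30 of 709, and those that overlapped no other gene 72 and 26 of 987. Overlap alone does not tell a peak on an exonic microRNA gene from one on the transcript that carries it, so the edges of the peaks are given next.

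Most recurring peaks followed the mature strand. Of the 103 genes enriched in all 4 libraries, 88 had a leading peak, the one with the highest deposited −log10 p, on a mature strand held in the RefSeq table. The strand was 5p in 54, 3p in 31 and without an arm name in 3, and 87 of 88 kept the same strand in every library where it was known. The joined pieces of these peaks had a median length of 26 nt in each library, and ranged from 11 to 84 nt. The 3′ edge lay within 2 nt of the mature 3′ end in 62 of 88 genes in WT and 68 in KO of set 1, and in 63 and 62 in set 2. At the 5′ end the same held for 44 and 40 genes in set 1, and for 40 and 39 in set 2, since the peaks began a median of 2.5 to 3 nt upstream of the mature strand. At Mir206 the joined peak began 2 nt upstream and ended at the last base of miR-206-3p in all 4 libraries, and at Mir133b it extended 1 nt beyond miR-133b-3p on either side. Genes in exons of protein-coding genes were mixed in this respect. Mir25, Mir93 and Mir1249 had joined peaks of 24 to 27 nt that ended 0 or 1 nt beyond the mature 3′ end in every library. At Mir7068 the joined peak was 81 to 84 nt long and ended 55 to 58 nt beyond the mature 3′ end. At Mir196b it was 62 or 63 nt long and ended 37 or 38 nt beyond. In KO of set 1 that joined peak consisted of touching pieces of 31 nt each, on miR-196b-5p and on miR-196b-3p. Its extension there thus covered the other mature strand of the hairpin.

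**Figure D2:**
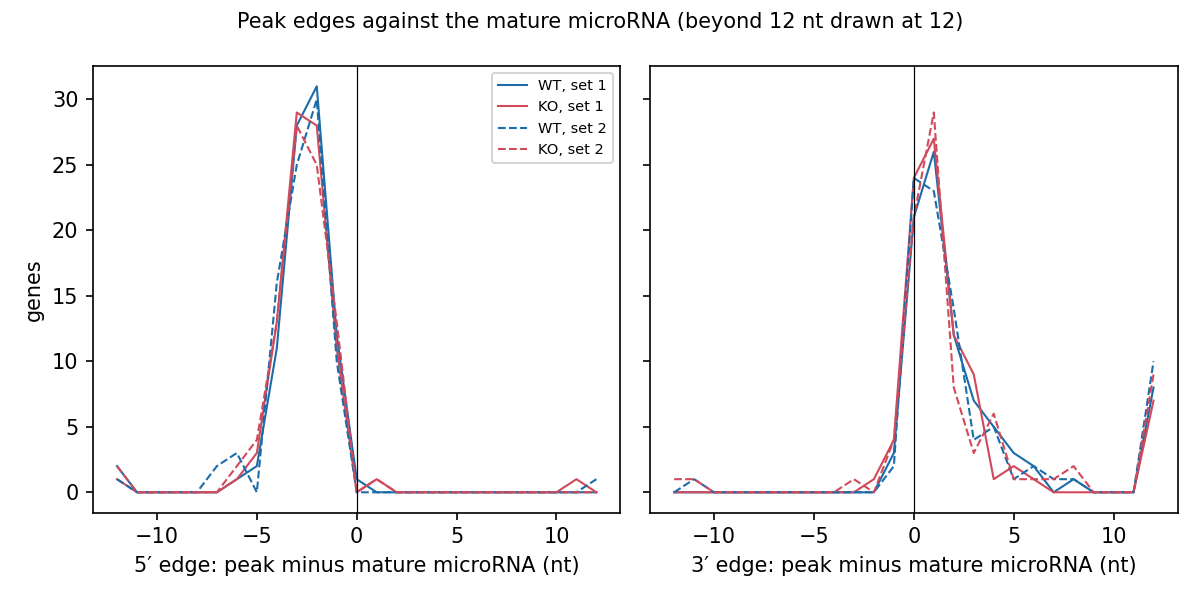
Number of genes (y axis) by the distance in nt (x axis) from the mature microRNA's edge to the edge of the joined peak pieces, at the 5′ end (left) and the 3′ end (right), for 88 genes in each of the 4 libraries. Negative values at the 5′ end lie upstream, and all 4 curves peak between 3 and 2 nt upstream at the 5′ end and at 0 to 1 nt at the 3′ end. Distances beyond 12 nt are drawn at 12.

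These 88 genes carried 51 seeds, and 53 of them shared 1 of 16 seeds with another gene of the group. The largest seed family was let-7, with 8 genes (seed GAGGUAG, as in let-7d-5p and let-7g-5p above). The family of miR-15 and miR-16 followed with 7 genes, and the miR-17, miR-29 and miR-30 families with 4 each. The miR-99/100, miR-125, miR-26 and miR-196 families had 3 each. These sizes are lower bounds, since the leading strand was not known for the remaining 15 genes. Of these, 10 had no mature strand in the RefSeq table, Mir30b and Mir30d among them. The others had a leading peak outside the mature strands held there, as at Mir23b and Mirlet7a-2.

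Among muscle microRNA genes, Mir133b and Mir206 had the highest mean folds. All 10 annotated genes of the list were listed in at least 1 library, 7 were listed in all 4, and 5 were enriched in all 4. In the order WT and KO of set 1, then WT and KO of set 2, the log2 fold over input of the leading peak at Mir133b was 9.41, 8.27, 10.09 and 10.10. Mir206, a microRNA of this group that is typical of regenerating muscle, had 8.13, 7.38, 8.92 and 6.12. The KO library was the lower one at Mir206 in both sets.

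Mir133a-1 had folds of 7.89, 4.54, 7.12 and 7.45 in the same order, and Mir133a-2 had 6.99, 4.12, 6.46 and 4.12. Mir1a-2 had 5.02, 6.99, 5.14 and 5.69. Mir1a-1 had 4.71, 4.73, 2.81 and 3.89, with its only peak in each library on miR-1a-1-5p. That strand is made by 1 gene, so the Mir1a-1 values stand for miR-1a-1-5p and not for miR-1a-3p. The miR-1a-3p and miR-133a-3p strands are each shared by both genes of their name, so for peaks on them the split between the copies is uncertain. The fold of a leading peak also depends on how a peak was cut into pieces: at Mir133a-2 in KO of set 1, one piece of 27 nt had 6.93 and the leading piece of 33 nt had 4.12.

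Mir499, with 4.73, 3.35, 2.93 and 3.24, was lower than these in every library, except that it lay slightly above Mir1a-1 in both WT libraries. The remaining muscle genes were listed in fewer libraries and enriched in none. Mir208b, in an intron of the slow myosin gene Myh7, was listed in WT of set 1 alone with 2.04. Mir208a, in the cardiac myosin gene Myh6, was listed in KO of set 1 alone with 0.80, and Mir1b in WT of set 2 alone with 1.06.

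Outside the muscle list, Mir451a, a red blood cell microRNA that is processed by AGO2 itself, had the highest mean log2 fold over the 4 libraries at 9.78 ± 2.52 (SD, n = 4 libraries). It was followed by Mir27a with 9.58 ± 0.74, and after Mir133b by Mir30e with 9.21 ± 1.02 and Mir29a with 9.12 ± 1.43. Mir99a, Mir143, Mir30b, Mir30d, Mir149, Mirlet7a-2, Mir30a, Mir16-2, Mir30c-2 and Mir23a completed the 15 highest, from 9.10 down to 8.19. Neighbors in this order differed by less than their SD over libraries.

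**Figure D3:**
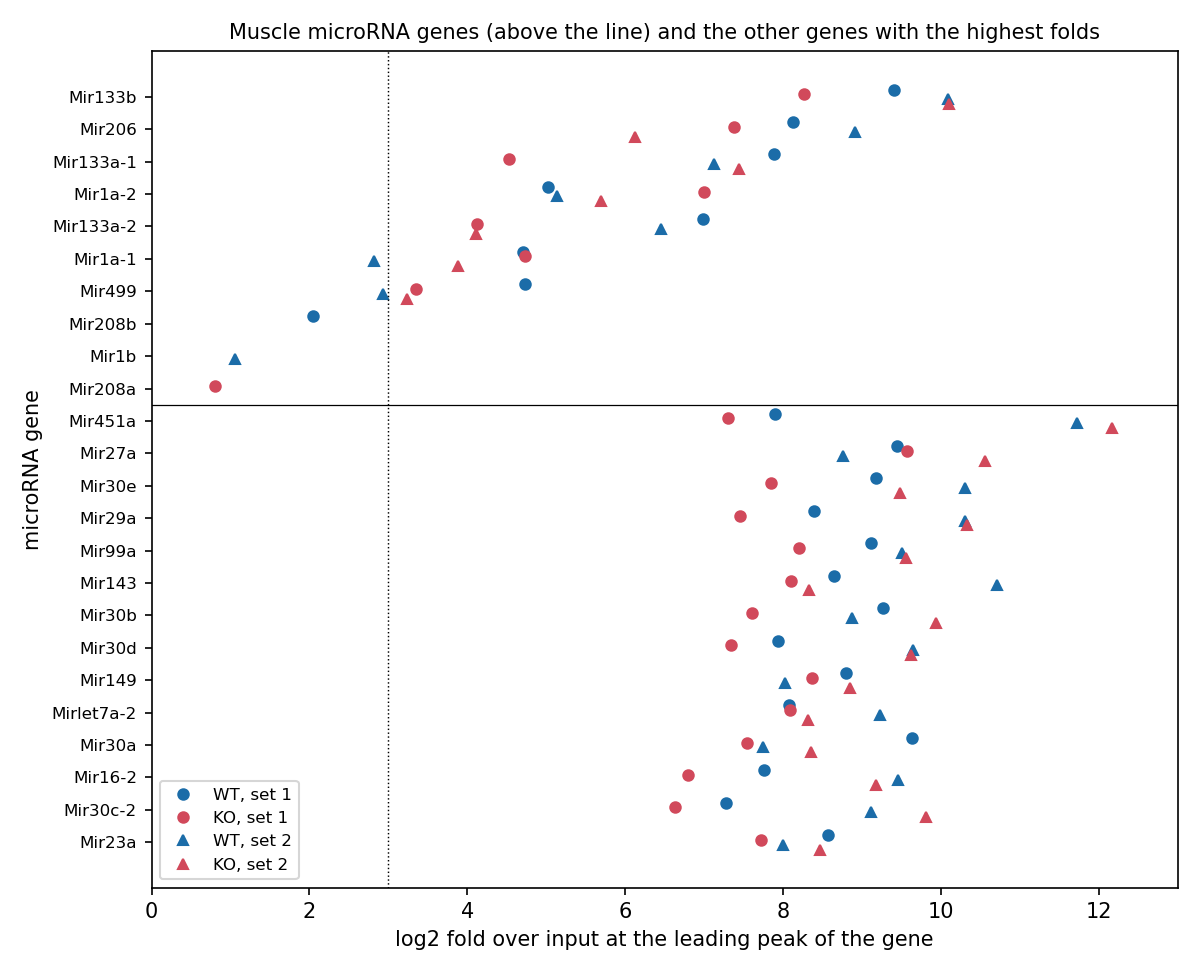
Log2 fold over input (x axis) at the leading peak of each microRNA gene (y axis), with 1 point for each of the 4 libraries (circles, set 1; triangles, set 2; blue, WT; red, KO), and the fold threshold of 3 dotted. Muscle genes stand above the line and the other highest genes below it, and a gene with fewer points was not listed in the missing libraries.

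Most genes of broadly expressed microRNA families were listed, and some of these families were enriched in full. All 6 miR-30 genes and all 4 miR-29 genes were enriched in all 4 libraries, as were all 3 miR-26 genes. Of 12 let-7 and miR-98 genes, 10 were listed and 9 enriched in all 4. Of the miR-23/27/24 genes, 4 of 6 were enriched in all 4 libraries: both members of miR-23 and miR-27, whereas Mir24-1 was listed in set 1 alone. Of 15 genes of the miR-17/92 cluster and its relatives, 14 were listed and 7 enriched in all 4, and the 5 relatives on the X chromosome that were listed, Mir106a, Mir18b, Mir20b, Mir19b-2 and Mir92-2, were enriched in none.

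Markers of other cells were present to unequal degrees. The endothelial Mir126a had folds of 8.55, 6.74, 7.21 and 7.01 in WT and KO of set 1 and WT and KO of set 2. Both red blood cell genes, Mir451a and Mir144, were enriched in all 4 libraries, as were 2 of 4 white blood cell genes, Mir150 and Mir142, and 4 of 5 genes of smooth muscle and fibroblasts. The liver microRNA gene Mir122 was enriched in both libraries of set 1, with 4.69 in WT and 3.30 in KO, and was not listed in either library of set 2. Of the neuronal and epithelial markers, 2 of 6 and 1 of 4 genes were listed and 0 were enriched. Of all 2200 annotated microRNA genes, 404 were listed and 145 enriched in at least 1 library. With so few marker genes, these counts do not show that the markers were rarer than microRNA genes in general. Fewer cells of a type and less microRNA per cell cannot be told apart in whole muscle.

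Differences between the library sets were larger than those between the genotypes. Over the 103 genes enriched in all 4 libraries, the median absolute difference in log2 fold over input between WT and KO was 0.50 in set 1 and 0.47 in set 2. Between the sets it was 1.0 in WT and 1.03 in KO, and the folds of set 2 were the higher ones at 71 and 76 of the 103 genes. Mir451a showed this most plainly, with 7.90 and 7.31 in WT and KO of set 1 and 11.72 and 12.17 in set 2. Mir144, from the same transcript, had 5.32 and 5.66 in set 1 and 9.77 and 9.14 in set 2. For both genes the 2 sets did not overlap, whereas WT and KO lay close together within a set.

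The direct lists set the AGO2 libraries of 1 set against each other: the WT list gives WT over KO for peaks called in WT, and the KO list gives the reverse for peaks called in KO. Both lists of a set use the same 2 libraries, so they are close to mirror images and not independent, and their folds do not pass through the inputs. Over all listed peaks, the median log2 fold was 0.74 and 0.30 in the WT lists of set 1 and set 2, and 0.72 and 0.27 in the KO lists. Both directions are therefore given below.

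Few members passed the main thresholds in the direct lists, as was also so for all listed peaks. Past a log2 fold of 3 and a −log10 p of 3 there was 1 of 412 members in the WT list of set 1 (0.243%), against 0.469% of all peaks. There were 0 of 411 in the KO list of set 1, 0 of 508 in the WT list of set 2 and 0 of 501 in the KO list of set 2, against 0.179%, 0.0192% and 0.0144% of all peaks. With 0 called, the Wilson upper limits are 0.926%, 0.751% and 0.761%. The single member was at Mir6970, within an exon of the helicase gene Skiv2l, with a log2 fold of 3.16 and a −log10 p of 3.33. That peak, chr17:34844998-34845159, is 162 nt long with 59 nt inside the microRNA gene, and in set 2 the leading peak of Mir6970 had 0.61.

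At a log2 fold of 1, 17 members at 15 genes passed in the WT list of set 1 (4.13%, against 4.85% of all peaks) and 11 members at 8 genes in that of set 2 (2.17%, against 0.403%). In the KO lists 3 members passed in set 1 (0.730%, against 0.755%), 2 of them at Mir1249 and 1 at Mir1902, and 0 in set 2 (against 0.144%). In set 1 the shares were thus close to or below those of all peaks. In the WT list of set 2 the share of members was above that of all peaks, and 3 of those 11 members were pieces at Mir206. The genes of the WT lists in set 1 and set 2 had 0 in common. Of the 15 genes in set 1, 6 were enriched over input in all 4 libraries: Mir21a, Mir181a-2, Mir7068, Mir196b, Gm24589 and Mir22. Only Mir7068 and Gm24589 passed at their leading peak. At Mir21a the fold of 1.70 was on miR-21a-3p, whereas the leading peak on miR-21a-5p had 0.35. At Mir181a-2 it was 1.37 on miR-181a-5p and 0.82 at the leading peak on miR-181a-2-3p, and at Mir196b 1.12 on miR-196b-3p and 0.97 at the leading peak on miR-196b-5p. The call at Mir22 was a piece of 2 nt, and the leading peak on miR-22-3p had −0.07. Over all listed microRNA genes, 11 passed at the leading peak in set 1 and 5 in set 2. Of the 8 genes in set 2, Mir206 and Mir142 were enriched over input in all 4 libraries, Mir127, Mir300 and Mir434 belong to the Dlk1-Dio3 cluster, and Gm26377, Gm47279 and Gm47302 lie in exons of protein-coding genes. The call at Mir142 was on miR-142a-5p, with a log2 fold of 1.25, whereas its leading peak on miR-142a-3p had 0.73. The call at Mir434 was a piece of 5 nt on miR-434-5p with 2.40, whereas its leading peak, on miR-434-3p, had 0.996.

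Among the 103 genes enriched in all 4 libraries, the direct fold was small. The absolute log2 WT over KO at the leading WT peak had a median of 0.27 in set 1 and 0.17 in set 2, and it was below 1 in 100 of 103 genes in set 1 and in 102 of 103 in set 2. The sign was the same in both sets for 45 of the 103 genes, with 25 above 0 and 20 below. In most of these genes the sets therefore disagreed on the direction of a small difference. The genes at or beyond 1 were Gm24589, Mir1249 and Mir7068 in set 1 and Mir206 in set 2.

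Mir206 was the gene with the highest mean direct fold of the 103. Its log2 WT over KO was 0.84 in set 1 (deposited −log10 p 18.7) and 2.67 in set 2 (deposited −log10 p 400, the highest value written). The mean was 1.76 ± 1.30 (SD, n = 2 sets). It ranked 6 of 103 in set 1 and 1 of 103 in set 2, where the next gene, Mir140, had 0.77. At the KO peaks the log2 KO over WT was −0.84 and −2.69. WT was the higher library in both sets, and the size of the difference varied between the sets by more than the difference in set 1.

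Its neighbor Mir133b, in the same long noncoding gene Gm28653, did not follow it. The log2 WT over KO at Mir133b was −0.36 in set 1 and −0.13 in set 2, with KO the higher library in both. Mir1a-1 had −0.30 and −0.32, and Mir1a-2 had 0.14 and −0.09. Mir133a-1 had 0.86 and 0.15, Mir133a-2 had 0.32 and 0.17, and Mir499 had 0.43 and 0.12. Of the muscle genes listed in both WT libraries, Mir206 alone went beyond 1 in either set.

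**Figure D4:**
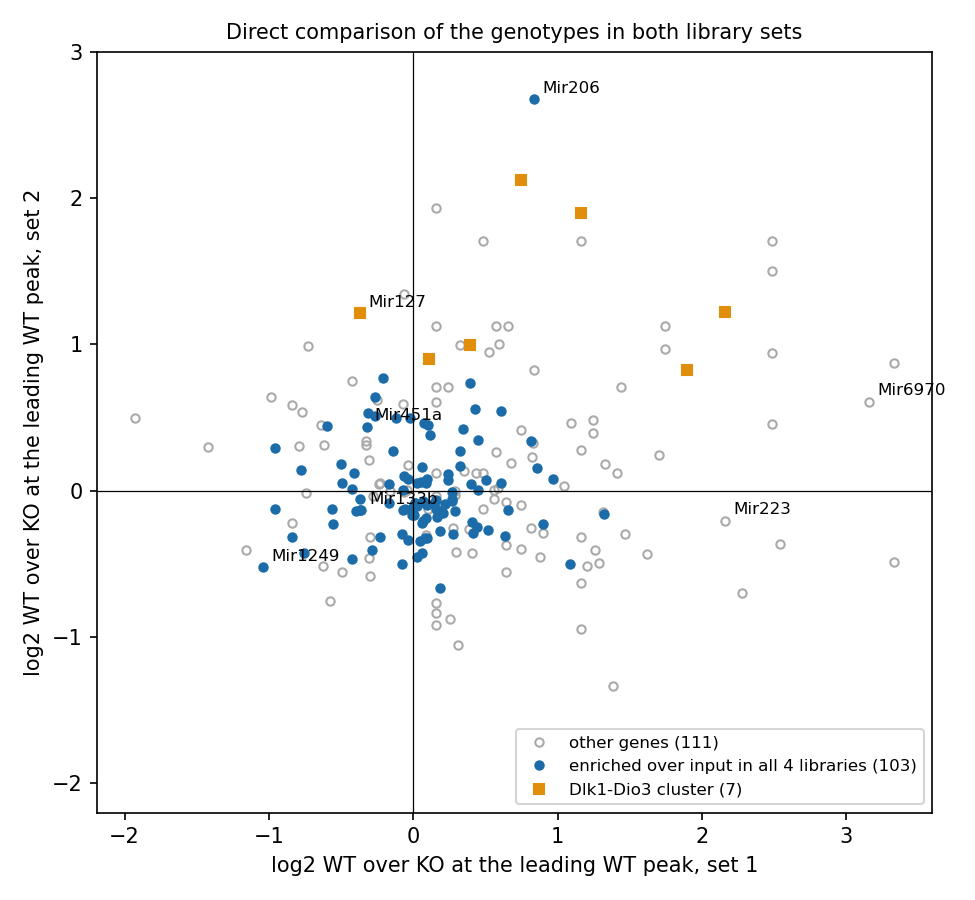
Log2 WT over KO at the leading WT peak in set 1 (x axis) and set 2 (y axis) for the 221 microRNA genes listed in both WT libraries, with 1 point for each gene. Genes enriched over input in all 4 libraries (blue) mostly gather near 0, with Mir206 apart in set 2 and Mir7068, Gm24589 and Mir1249 beyond 1 in set 1, and the Dlk1-Dio3 genes (orange squares) lie above 0 in set 2.

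Across all 221 genes listed in both WT libraries, 104 had the same sign in both sets, 72 above 0 and 32 below. The 5 with the highest mean among them were Mir6516 (2.10 ± 1.74), Mir582 (2.09 ± 0.55), Mir9-3 (1.99 ± 0.69), Mir6970 (1.88 ± 1.80) and Mir206, each as log2 WT over KO with its SD over n = 2 sets. Apart from Mir206 these were weakly supported: none was enriched over input in any library, and Mir6516 lay below input throughout, from −3.51 to −1.34. The same direct fold of 2.48 in set 1 was listed at 7 members of 6 genes, Mir582 and Mir9-3 among them, with a −log10 p of at most 1.76.

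The 5 with the lowest mean were Mir132 (−0.79 ± 0.53), Mir1249 (−0.78 ± 0.37), Mir218-2 (−0.66 ± 0.12), Mir324 (−0.59 ± 0.23) and Mir19b-1 (−0.58 ± 0.37). Mir1249, Mir324 and Mir19b-1 were enriched over input in all 4 libraries, and Mir1249 lies in an exon of the protein-coding gene 5031439G07Rik. At Mir1249 the fold over input was 5.67 in WT and 6.79 in KO of set 1, and 5.47 in WT and 5.87 in KO of set 2. KO was the higher library in both sets, with a log2 KO over WT of 1.02 (deposited −log10 p 9.59) in set 1 and 0.48 (1.38) in set 2.

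The Dlk1-Dio3 cluster, a large imprinted group of microRNA genes on chromosome 12, had low folds over input and leaned toward WT in set 2. Of its 38 genes, 22 were listed, 3 in all 4 libraries (Mir136, Mir127 and Mir434), and 0 were enriched in all 4. At the leading WT peaks, 8 of 9 genes had a log2 WT over KO above 0 in set 1 and 18 of 18 in set 2, against 70.0% and 56.4% of all listed microRNA genes. The medians were 1.16 and 1.27, against 0.25 and 0.08 over all listed microRNA genes. In the WT list of set 1, the same fold of 1.16 was listed at 15 members of 15 genes, with a −log10 p of at most 1.86. The genes compared also differed in their fold over input: in WT of set 1 the median was 0.87 for the cluster and 3.12 for all listed microRNA genes. At the leading KO peaks, KO over WT was above 0 at 4 of 6 genes in set 1 and 2 of 16 in set 2, against 40.7% and 50.2% of all genes, with medians of 0.54 and −1.11. In set 2 both directions thus gave WT as the higher library, whereas in set 1 each list favored the library that its peaks came from.

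Mir136 had folds over input of 3.57 and 3.50 in WT and KO of set 1 and of 6.52 and 5.49 in set 2, with a log2 WT over KO of 0.11 and 0.90. Mir127 had 2.04 and 3.44 over input in set 1, then 4.81 and 4.56 in set 2, with −0.37 and 1.21. Mir434 had 3.20 and 2.80 over input in set 1, then 4.52 and 4.37 in set 2, with 0.39 and 0.996. Mir300 was listed in all but the KO library of set 1, with a log2 WT over KO of 0.74 and 2.12. In set 2 the deposited −log10 p at the leading WT peak was at least 3 for 4 of the 18 genes, with 4.87 at Mir136, 4.80 at Mir127, 3.07 at Mir300 and 3.02 at Mir434. It was below 3 at the other genes of set 2 and at all 9 genes of set 1.

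Most blood cell genes differed in direction between the sets. Mir451a had a log2 WT over KO of −0.32 in set 1 and 0.44 in set 2, and Mir144 had −0.27 and 0.51. Mir223, a myeloid microRNA, had 2.16 in set 1 (deposited −log10 p 9.03) and −0.21 in set 2. Mir142, found in all blood lineages, was above 0 in both, with 0.39 and 0.73. Mir150 had 0.09 and −0.32, and Mir155 had 0.29 and −0.01. Of the 6 blood cell genes, Mir142 alone had WT as the higher library in both sets.

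Genes of some broadly expressed families lay on the same side of 0 within a set and on opposite sides between the sets. All 6 miR-30 genes were above 0 in set 1 (0.06 to 0.52) and all 6 below 0 in set 2 (−0.29 to −0.10). The 3 miR-26 genes did the same, with 0.16 to 0.28 in set 1 and −0.30 to −0.09 in set 2. For miR-29 it was 4 of 4 above 0 in set 1 and 2 of 4 in set 2, and for let-7 and miR-98 it was 8 of 10 and 4 of 10. The 103 genes enriched in all 4 libraries leaned the same way as a group. Of these, 64 were above 0 in set 1 and 44 in set 2, with medians of 0.06 and −0.09. The change of side between the sets was thus not particular to these families. The endothelial Mir126a had 0.09 and −0.09. The genes of the miR-17/92 list were above 0 at 6 of 10 in set 1 and at 11 of 13 in set 2, and their medians were 0.12 and 0.49. The size was below 1 at every miR-30, miR-26 and miR-29 gene.

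**Figure D5:**
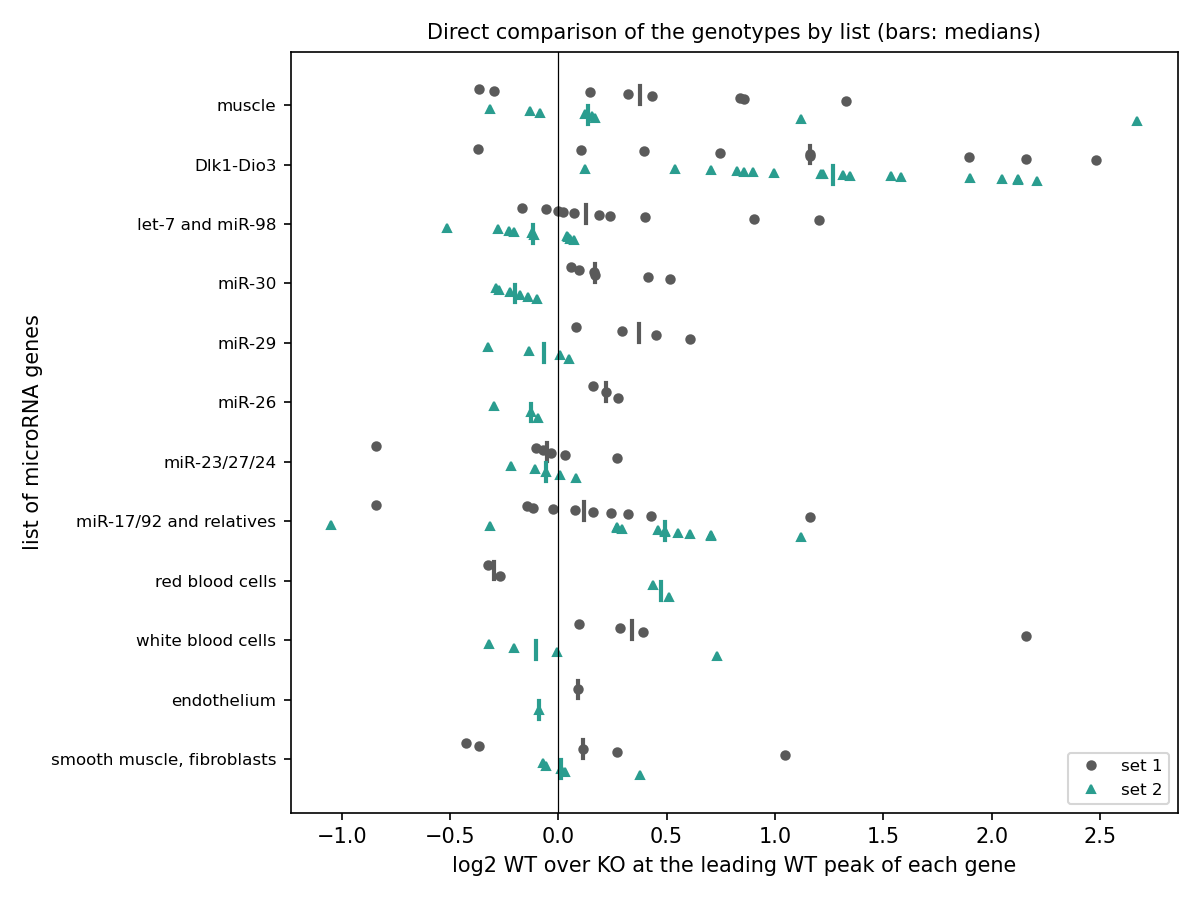
Log2 WT over KO at the leading WT peak (x axis) for the genes of each list (y axis), with 1 point for each gene (gray circles, set 1; green triangles, set 2) and the median of a list as a bar. The Dlk1-Dio3 medians lie above 1 in both sets, the miR-30 and miR-26 genes lie above 0 in set 1 and below 0 in set 2, and the red blood cell genes lie below 0 in set 1 and above 0 in set 2. At the leading KO peaks of set 1, which are not drawn, the Dlk1-Dio3 median log2 KO over WT was 0.54.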

How the data were processed

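The submitters' processing notes name UMI-tools, FastQC, cutadapt, STAR, SAMtools and the build GRCm38, and the methods name the peak caller CLIPper. Each deposited list gives a log2 fold between 2 libraries and the −log10 of its p-value per peak. The lists hold no read counts, so depth is unknown, and the input and miR-486-enriched libraries were not analysed on their own. Members were found with Python 3.11.15 and pandas 2.3.3 against GENCODE M21 (the labels name a later release of the same build), and the overlap function was tested on simulated data. The leading peak of a gene had its highest −log10 p over input, and the direct fold was read at the same coordinates or at the most overlapping peak.

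Named were all muscle genes, up to 15 genes enriched in all 4 libraries by mean fold, up to 10 per direct list past the thresholds, 5 genes at each end of the direct fold, and examples of families and cell type markers. Genes past a log2 fold of 1, Mir25, Mir93, Mir140, Mir300, Mir24-1 and the X-linked relatives of miR-17 were named after their values were seen. Members and lists were chosen with earlier results of these data known. No test was made, since peaks of a gene are not replicates. Alternatives were other thresholds, overlaps, gene sets and each set alone.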

Additional observations from a re-analysis of the deposited data

How the results depend on the processing

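Counts of enriched members stayed within 1.5 times under every threshold tried. In the order WT and KO of set 1, then WT and KO of set 2, leaving out genes that overlap an exon of another gene type gave 148, 136, 178 and 162 enriched members, and 144, 138, 172 and 177 listed genes, with 111 listed in all 4 libraries. Joining adjoining pieces, chosen after seeing the data, gave 129, 123, 147 and 142 enriched of 292, 283, 341 and 361 joined peaks. Keeping peaks with a −log10 p of at least 3 gave 122, 120, 145 and 138 listed genes, and 106 in all 4. In the direct lists, a log2 threshold of 1 gave 17, 3, 11 and 0 members. In WT of set 1, a −log10 p threshold of 2 gave 3, and 0 remained with a log2 threshold of 4, a −log10 p threshold of 5, at least 0.5 of the peak inside the gene, or no exonic genes. A −log10 p threshold of 2 gave 1 in KO of set 2. The median log2 fold over input in WT and KO was 4.37 and 4.27 with at least 0.5 of the peak inside the gene, 4.41 and 4.17 without exonic genes, 2.96 and 2.71 by gene, and 5.66 and 5.61 for peaks with a −log10 p of at least 3. With 1 set left out it ran from 3.77 to 3.93 in WT and from 3.54 to 3.66 in KO. The median log2 WT over KO at leading WT peaks was 0.17 (0.0286 for enriched leading peaks, and 0.08 to 0.25 with 1 set left out). The median log2 KO over WT at leading KO peaks was −0.06, with −0.13 in set 1 alone and 0.00 (0.0009) in set 2 alone, where the sign turned. The cause was not tested. No paired analysis was possible because these values come from no test, and 2 pairs are too few for an exact paired test to pass. Values within each set, and the direct lists that pair its libraries, are given instead. Unknown read depth limits the weak peaks.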
